A study of Homo sapiens with 4 samples.

Results

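A set of 10 genes of growth factor and insulin signalling was examined: the ligand FGF19, its receptor FGFR4 and co-receptor KLB, the receptors EGFR, ERBB3, MET, INSR and IGF1R, and the insulin receptor substrates IRS1 and IRS2. They were chosen by name and make up 10 of the 46427 genes in the expression tables. Where a table listed a gene number on several lines, its values were summed. All 10 genes were found, and their levels were compared in Huh7 and HepG2 cells with NC-siRNA or COP1-siRNA.

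Both cell lines, Huh7 and HepG2, are of human origin and labelled as wild type. The paper counts both as hepatocellular carcinoma, and their tumour type was not checked here. If they differ in tumour type, this is part of every difference between the lines and was not tested. Each line was exposed for 5 h to 20 nM siRNA in a lipid reagent, either a control without target (NC-siRNA) or one directed at COP1 (COP1-siRNA), and was harvested 48 h later. COP1 encodes an E3 ubiquitin ligase, and the purpose was to find genes whose expression depends on it in these cells. The libraries were made from poly(A)+ RNA with a stranded kit and carried 1 common batch label. Each of the 4 combinations of line and siRNA had 1 library, and the lines stand for 1 tumour each. No difference within a line could be set against replicates, and the spread between cultures is unknown.

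FGF19 is a hormone of the fibroblast growth factor family that is normally made by the ileum after bile acids activate the nuclear receptor FXR. It reaches the liver, where the receptor tyrosine kinase FGFR4 with its co-receptor β-Klotho, the product of KLB, lowers the transcription of bile acid synthesis genes. Insulin and IGF receptors pass their signal through the substrates IRS1 and IRS2 to PI3 kinase and AKT, while EGFR, ERBB3 and MET respond to EGF-like ligands, neuregulins and hepatocyte growth factor. COP1 is known to mark proteins for degradation, and the level of an mRNA does not show that of its protein.

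The knockdown was checked first. COP1 itself had an abundance of 19.7 TPM (transcripts per 1000000 transcripts) in Huh7 control cells and 6.18 TPM after COP1-siRNA, and in HepG2 26.9 and 16.1 TPM. Of its control level 31.4% was left in Huh7 and 59.9% in HepG2, so that by TPM 2-fold was passed in Huh7 and not in HepG2. The paper, by its own rule, lists COP1 among the genes lowered in both lines. All 10 hepatocyte markers were at 1 TPM or more in every library, and their summed level was 23045 and 21454 TPM in Huh7 and 2899 and 3399 TPM in HepG2, with NC-siRNA and COP1-siRNA respectively. Of 5 fibroblast and stellate cell markers 0 to 2 reached 1 TPM (summed 0.783 to 3.98 TPM), of 3 endothelial markers 0 to 1 (0.165 to 7.36 TPM), and of 5 leukocyte markers 1 (1.46 to 4.62 TPM), while PTPRC and CD3E were at 0 in all libraries. Of 3 cholangiocyte markers 2 reached 1 TPM, with sums of 68.9 to 227 TPM, and KRT7 was at 0 in 3 libraries and at 0.0551 TPM in the fourth. The summed hepatocyte markers were thus higher in Huh7, as were most of the genes described here, and the part of this difference in theirs was not tested. The number of reads is unknown, and coverage per unit of FPKM put the COP1-siRNA library at 1.13 times the depth of its control in Huh7 and 1.27 times in HepG2.

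Changes are given as log2 of the ratio of TPM + 1, in which the added 1 understates the change of genes at low TPM. A gene was tested in a comparison if it reached 1 TPM in at least 1 of its libraries. The limit for a call was 2-fold on this scale. The study also used 2-fold, but together with a p-value, so the rules differ. With COP1-siRNA, 0 of the 10 genes passed 2-fold in Huh7, where 1.08% of the 13000 tested genes passed it in either direction. In HepG2 0 of the 9 tested genes passed it, against 0.934% of 14456, and FGF19 was not tested there. Between the lines the picture was different. With NC-siRNA, 8 of the 10 genes were at least 2-fold higher in Huh7 than in HepG2, against 14.7% of the 15055 tested genes, and 0 were at least 2-fold lower, against 27.9%. With COP1-siRNA 6 of the 10 were higher, against 14.0% of 15126, and 0 were lower, against 26.0%. The 6 genes FGF19, KLB, FGFR4, EGFR, ERBB3 and IRS1 were higher with both siRNAs, as were 12.8% of the 14695 genes tested in both comparisons.

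**Figure D1:**
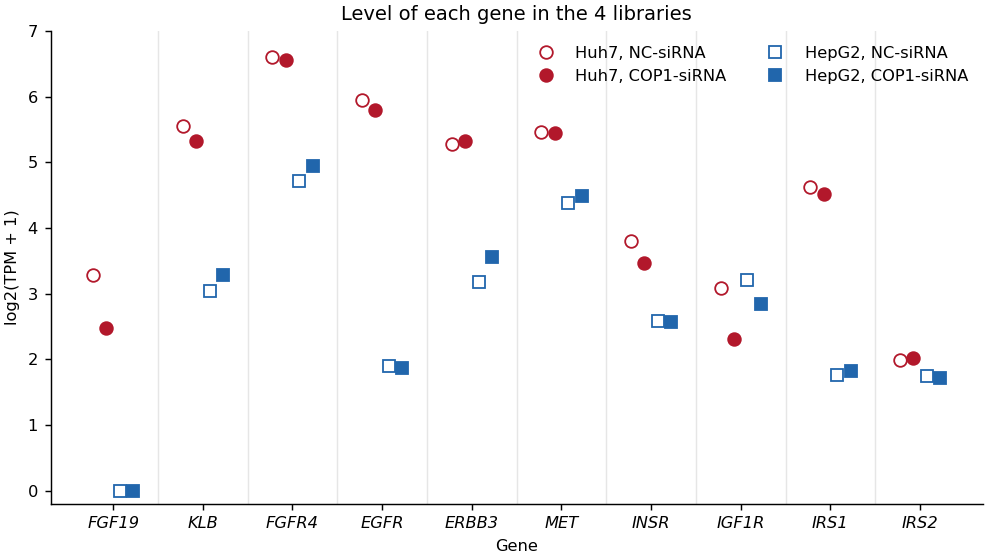
Level of each gene on the log2(TPM + 1) scale (vertical axis) in the 4 libraries, with 1 point per library; circles are Huh7 and squares HepG2, open symbols NC-siRNA and filled symbols COP1-siRNA. The circles lie above the squares for all genes but IGF1R, and the symbols of 1 line lie close together except for FGF19 and IGF1R, which in Huh7 went from 8.73 to 4.57 TPM and from 7.54 to 3.94 TPM.

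The plot of levels by gene shows the order within each library. TPM is a value per length, and levels of different genes were set side by side by TPM. Mean coverage did not follow TPM equally for all genes. In the Huh7 control, coverage per TPM was 0.42 for IGF1R and 0.60 for EGFR, against 2.68 for KLB and IRS1. By coverage EGFR, at 36.7, lay below KLB, ERBB3, IRS1 and MET in that library, so places depend on the measure. FGFR4 had the highest TPM of the 10 genes in all 4 libraries. In Huh7 with NC-siRNA the order after it was EGFR, KLB, MET, ERBB3, IRS1, INSR, FGF19, IGF1R and IRS2. With COP1-siRNA the same line had MET, ERBB3 and KLB in places 3 to 5 and otherwise the same order. In HepG2 with NC-siRNA FGFR4 was followed by MET, IGF1R, ERBB3, KLB, INSR, EGFR, IRS1, IRS2 and FGF19. EGFR, second in Huh7, was thus in place 7 in HepG2. IGF1R, in place 9 in Huh7, was in place 3 in HepG2 with NC-siRNA and in place 5 with COP1-siRNA. Several neighbours were close: the ratio of KLB to MET was 1.07 in Huh7 with NC-siRNA, that of ERBB3 to KLB 1.01 in Huh7 with COP1-siRNA, and those of IGF1R to ERBB3 and of IRS1 to IRS2 were both 1.02 in HepG2 with NC-siRNA. With no replicate libraries, such neighbours cannot be put in order.

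FGF19 (gene 9965, minus strand, chr11:69698238-69704022 of GRCh38) was detected in Huh7 only. Its level in Huh7 was 8.73 TPM in the control and 4.57 TPM with COP1-siRNA, and FGF19 was listed at 0 in both HepG2 libraries. The Huh7 values rest on 42556 and 26297 aligned bases over the 1821 exonic bases of the gene, a mean coverage of 23.4 and 14.4. Because there are no counts, no upper limit and no fold can be given for HepG2. Of 20 genes that all cells use 0 were at 0 in any library. The lowest of them, TBP at 18.8 TPM in the Huh7 control, was above FGF19. That check therefore says nothing about a gene at the level of FGF19. The ratio of COP1-siRNA to NC-siRNA for FGF19 in Huh7 was 0.523 by plain TPM, or −0.80 on the log2(TPM + 1) scale. This was percentile 0.923 of the 13000 tested changes and under the 2-fold limit. At 1.5-fold, FGF19 and IGF1R were the 2 of the 10 genes that were lower in Huh7, against 2.68% of all tested genes.

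KLB (gene 152831, plus strand, chr4:39406930-39451533) had 45.9 TPM in the Huh7 control and 39.0 TPM after COP1-siRNA. In HepG2 it was at 7.20 and 8.73 TPM. Both Huh7 values were above both HepG2 values, by 6.38-fold with NC-siRNA and 4.46-fold with COP1-siRNA. With COP1-siRNA the log2 change was −0.23 in Huh7 and 0.25 in HepG2, so that the signs were opposite and both sizes under the limit.

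FGFR4 (gene 2264, plus strand, chr5:177086915-177098144), the receptor that KLB completes, was at 96.6 and 93.0 TPM in Huh7 with NC-siRNA and COP1-siRNA. The HepG2 libraries had 25.4 and 29.8 TPM, both below the Huh7 values. The difference between the lines was 3.81-fold with NC-siRNA and 3.12-fold with COP1-siRNA, smaller than that of KLB. The log2 changes with COP1-siRNA were −0.05 in Huh7, where FPKM in place of TPM turned the sign, and 0.23 in HepG2. The ratio of FGFR4 to KLB was 2.1 and 2.39 in Huh7 and 3.52 and 3.42 in HepG2, so the receptor mRNA exceeded that of its co-receptor in every library. Of the 3 genes of this hormone axis Huh7 thus had ligand, co-receptor and receptor mRNA, while HepG2 had the receptor and co-receptor with the ligand listed at 0.

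The promoter windows of KLB and FGFR4 are shown because, of the 8 genes with a window in RefSeq (GRCh38.p14), KLB had the lowest G and C content and its partner FGFR4 the most GC boxes, and that of EGFR because its level differed most between the lines. Each window holds 250 bases before and 50 after the annotated start, 5′ to 3′ on the strand of the gene, and capitals mark the GC box GGGCGG on either strand, with overlapping copies counted. KLB lies at chr4:39406680-39406979, FGFR4 at chr5:177086665-177086964 and EGFR at chr7:55018767-55019066, all on the plus strand.
KLB: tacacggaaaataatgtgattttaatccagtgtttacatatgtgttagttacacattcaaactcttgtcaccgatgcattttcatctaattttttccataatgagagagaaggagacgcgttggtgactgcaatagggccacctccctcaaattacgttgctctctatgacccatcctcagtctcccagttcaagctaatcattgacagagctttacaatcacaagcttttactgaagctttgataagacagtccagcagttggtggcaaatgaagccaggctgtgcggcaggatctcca
FGFR4: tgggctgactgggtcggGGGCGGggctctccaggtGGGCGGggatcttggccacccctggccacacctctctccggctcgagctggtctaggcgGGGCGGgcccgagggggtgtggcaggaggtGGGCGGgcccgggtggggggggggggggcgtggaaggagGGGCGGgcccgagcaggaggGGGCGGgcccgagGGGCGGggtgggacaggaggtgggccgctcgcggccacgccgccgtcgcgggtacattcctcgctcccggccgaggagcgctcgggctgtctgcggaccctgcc
EGFR: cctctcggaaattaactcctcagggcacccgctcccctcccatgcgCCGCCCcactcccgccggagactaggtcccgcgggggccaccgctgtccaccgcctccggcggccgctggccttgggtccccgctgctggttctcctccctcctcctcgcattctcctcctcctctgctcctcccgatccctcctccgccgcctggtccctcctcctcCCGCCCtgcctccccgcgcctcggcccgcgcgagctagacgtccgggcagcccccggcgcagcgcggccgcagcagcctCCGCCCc

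The KLB window was 42.3% G and C and held 6 CpG, which is percentile 3.44 of the 11553 windows of tested genes, whose median was 65.3%. The other 7 windows were rich in G and C, from 69.3% for MET to 79.7% for IGF1R. All of these 7 held the GC box, a binding motif of SP1 and related factors, with 7 copies in FGFR4, 5 in IRS2, 4 each in INSR and IRS1, 3 each in EGFR and MET and 2 in IGF1R, while KLB held 0. Of all windows 69.4% held a GC box. The CCAAT box, searched as CCAAT on both strands, was found only in IRS2, with 2 copies, and in 36.8% of all windows. The TATA box TATAAA and the AP-1 motif TGACTCA were found in 0 of the 8 windows, against 5.97% and 2.91% of all. These are matches of letters and no measure of binding.

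EGFR (gene 1956, plus strand, chr7:55019017-55211628), the receptor for EGF and related ligands, had the largest difference between the lines among those of the 10 genes with a value above 0 in both. It was at 60.8 and 54.6 TPM in Huh7 with NC-siRNA and COP1-siRNA. In HepG2 the levels were 2.73 and 2.64 TPM. The lines did not overlap, and by TPM EGFR went from one of the best expressed of the 10 genes in Huh7 to one of the least expressed in HepG2. Huh7 was 22.3-fold higher with NC-siRNA and 20.7-fold higher with COP1-siRNA, log2 differences of 4.05 and 3.93 on the TPM + 1 scale, at percentiles 99.0 and 99.1 of all tested genes. Its log2 differences with COP1-siRNA were −0.15 in Huh7 and −0.04 in HepG2. EGFR-AS1, which overlaps 9200 bases of EGFR on the opposite strand, was at 4.47 and 5.11 TPM in Huh7 and 0.359 and 0.677 TPM in HepG2. The library kit keeps the strand, but how the counting used it is not given in the sources used here.

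ERBB3 (gene 2065, plus strand, chr12:56080108-56103505) encodes a neuregulin receptor with little kinase activity of its own, which signals as a partner of other ERBB receptors. It was at 38.0 and 39.3 TPM in Huh7 and at 8.06 and 10.9 TPM in HepG2, with NC-siRNA and COP1-siRNA. Both Huh7 values lay above both HepG2 values. The Huh7 libraries were 4.71-fold and 3.62-fold higher. Its log2 change with COP1-siRNA was 0.05 in Huh7 and 0.39 in HepG2, the latter being the highest of the 9 genes tested in HepG2 and at percentile 94.0 of all changes there. By TPM EGFR exceeded ERBB3 in Huh7, with ratios of 1.60 and 1.39, and was below it in HepG2, with ratios of 0.339 and 0.243. By mean coverage EGFR was below ERBB3 in Huh7 too, at 36.7 and 38.9 against 86.9 and 106.

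The 2 other ERBB receptors put these values in context. ERBB2, the shared partner without a ligand of its own, was at 18.3 and 19.9 TPM in Huh7 and 17.7 and 19.7 TPM in HepG2, a difference between lines of 0.04 and 0.02 on the log2 scale. By TPM ERBB2 was therefore the most abundant ERBB receptor mRNA in HepG2 and the least abundant of the 3 in Huh7. ERBB4 was listed at 0 in Huh7 and stayed at 0.29 and 0.49 TPM in HepG2. Among the FGF receptors FGFR4 led FGFR3 in both lines, since FGFR3 was at 44.8 and 41.7 TPM in Huh7 and 21.1 and 23.9 TPM in HepG2. FGFR1 had the opposite order of the lines, with 5.10 and 5.12 TPM in Huh7 and 21.9 and 21.5 TPM in HepG2. FGFR2 was listed at 0 in Huh7 and was at 14.7 and 13.7 TPM in HepG2. FGFRL1, a relative without a kinase domain, was at 53.9 and 45.7 TPM in Huh7 and 26.7 and 29.5 TPM in HepG2. Among the 4 FGF receptors with a kinase domain, FGFR4 and FGFR3 were thus above the others in Huh7, while in HepG2 all 4 lay between 13.7 and 29.8 TPM.

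**Figure D2:**
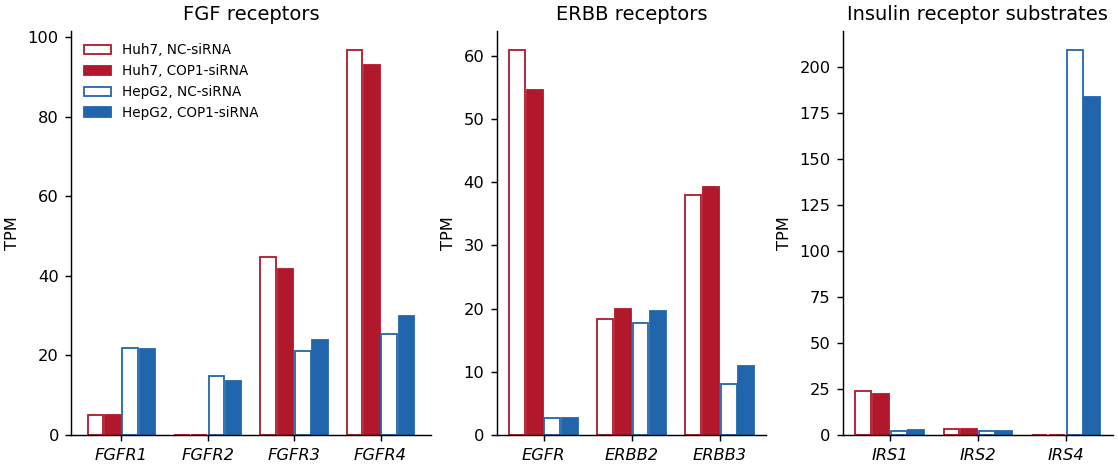
TPM (vertical axes, from 0) of the FGF receptors, the ERBB receptors and the insulin receptor substrates in the 4 libraries, with 1 bar per library; red is Huh7 and blue HepG2, open bars NC-siRNA and filled bars COP1-siRNA. FGFR4, EGFR, ERBB3 and IRS1 were higher in Huh7, FGFR1, FGFR2 and IRS4 in HepG2, and ERBB2 was at 17.7 to 19.9 TPM in all 4 libraries.

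MET (gene 4233, plus strand, chr7:116672196-116798386), the receptor for hepatocyte growth factor, was at 43.0 and 42.8 TPM in Huh7 with NC-siRNA and COP1-siRNA. The HepG2 values were 19.8 and 21.5 TPM. MET was higher in both Huh7 libraries, with little between the siRNAs in either line. Huh7 was 2.17-fold higher with NC-siRNA, a log2 difference of 1.08, and 1.99-fold higher with COP1-siRNA, 0.96, so that only the first passed the limit. The log2 change of MET with COP1-siRNA was −0.00 in Huh7, the smallest of the 10 genes and of either sign depending on the scaling, and 0.12 in HepG2. HGF, the ligand, was at or below 0.02 TPM in every library. MST1R, the closest relative of MET, was at or below 0.25 TPM.

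INSR (gene 3643, minus strand, chr19:7112257-7294414), the insulin receptor, had 12.9 TPM in the Huh7 control and 10.1 TPM after COP1-siRNA. HepG2 had 5.00 and 4.93 TPM. The lower of the Huh7 values still lay above both HepG2 values. The difference between the lines was 2.58-fold with NC-siRNA and 2.04-fold with COP1-siRNA, which are 1.21 and 0.90 on the log2(TPM + 1) scale and lie on either side of the limit. With COP1-siRNA the log2 value of INSR differed by −0.33 in Huh7, at percentile 9.78 of all tested genes, and by −0.02 in HepG2, where upper-quartile and median-of-ratios scaling turned the sign.

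IGF1R (gene 3480, plus strand, chr15:98648539-98964530), the receptor for IGF1 and IGF2, was, with IRS2, 1 of the 2 genes under 2-fold between the lines with both siRNAs and the only one of the 10 that was lower in Huh7. Its level was 7.54 TPM in the Huh7 control and 3.94 TPM after COP1-siRNA. In HepG2 it was at 8.24 and 6.20 TPM. The lines overlapped, and in each the COP1-siRNA library was the lower one. Huh7 was lower than HepG2 by 0.11 on the log2 scale with NC-siRNA, where the sign turned under median-of-ratios scaling and quantile normalization, and by 0.54 with COP1-siRNA. IGF1R was lower with COP1-siRNA in both lines, with 0.523 of its TPM left in Huh7 and 0.752 in HepG2. These are log2 changes of −0.79 and −0.36, at percentiles 0.962 and 6.90 of the tested genes, both under 2-fold. At 1.5-fold 0 of the 9 genes tested in HepG2 were lower, against 1.87% of all. Its mean coverage was low, at 3.16 and 1.88 in Huh7 and 3.12 and 3.02 in HepG2. With depth-scaled coverage in place of TPM, in which the added 1 weighs more on such low values, the changes were −0.45 and −0.20.

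By TPM the 2 receptors were in opposite order in the lines. The ratio of INSR to IGF1R was 1.71 and 2.55 in Huh7 and 0.606 and 0.796 in HepG2, with NC-siRNA and COP1-siRNA. By mean coverage INSR was above IGF1R in all 4 libraries. It had 34.5 and 31.7 against 3.16 and 1.88 in Huh7, and 12.4 and 15.4 against 3.12 and 3.02 in HepG2. The order of these 2 receptors thus depends on the measure. Of their ligands, IGF2 was at 346 and 206 TPM in Huh7 and 39.3 and 37.0 TPM in HepG2, log2 changes of −0.74 and −0.08, although reads that it shares with the read-through gene INS-IGF2 make its value uncertain. INS was listed at 0 in all libraries. The clearance receptor IGF2R was at 61.2 and 60.8 TPM in Huh7 and 26.7 and 31.8 TPM in HepG2.

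The 3′ UTR of IGF1R was of interest because the 7-base sequence AGCAGTC is known from earlier results of these same libraries, in which genes with it in the 3′ UTR were lower with COP1-siRNA as a group. Its presence is therefore a description and no independent support. In GENCODE 29 (GRCh38), with 1 transcript per gene, the 3′ UTR of IGF1R had 7088 bases and held 5 copies of AGCAGTC. Each copy is shown with its flanks, 5′ to 3′ on the plus strand, with the 7 bases in capitals.
IGF1R chr15:98958526-98958532: gtaagaagaaaAGCAGTCaatggattcaa
IGF1R chr15:98961926-98961932: taaaatagaagAGCAGTCactgtggaact
IGF1R chr15:98962060-98962066: gcttttcccacAGCAGTCcacctctgcag
IGF1R chr15:98962282-98962288: tggcccattccAGCAGTCccagttatgca
IGF1R chr15:98962769-98962775: catcgaggctcAGCAGTCatccgtgggca

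Of the 12569 genes with a 3′ UTR, 8.84% held AGCAGTC at least once, and 2 held 5 copies or more, IGF1R with 5 and TPPP with 6, the latter named after its values were seen. The 3′ UTR of IGF1R was also long, at percentile 97.7 of all genes, whose median was 998 bases. Genes with 0 copies had a median log2 change of 0.00 in Huh7 and −0.00 in HepG2, those with 1 copy −0.13 and −0.09, those with 2 copies −0.17 and −0.06, and those with 3 or more −0.13 and −0.06. The median 3′ UTR length went from 880 through 2861.5 and 5055.5 to 11861 bases over these classes, so copies and length cannot be told apart. IGF1R, with −0.79 and −0.36, lay below the median of its class in both lines. EGFR, the only other of the 10 genes with the site, held 1 copy and had values of −0.15 and −0.04. Of 2370 mature human miRNAs in RefSeq, 0 had the seed GACUGCU that pairs with this site.

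The seeds of the COP1-siRNA itself, bases 2 to 8 of a strand, pair with CCAAGTT for the antisense strand and AGCATTC for the sense strand, which 10.7% and 9.73% of the 12569 genes held. The antisense site occurred in 1 of the 10 genes, IRS1, and is shown because it is the site that the guide strand of the siRNA could pair with. It lies on the minus strand of GRCh38.
IRS1 chr2:226731506-226731512: gtttcacttttCCAAGTTttctttatagt

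The sense site occurred once each in EGFR, IGF1R and IRS1. The remaining 7 genes held 0 of the 3 sites in the transcript with the longest coding sequence. For MET and INSR this transcript has a short 3′ UTR of 218 and 429 bases, and in their longest annotated 3′ UTR of 2262 and 4801 bases MET held 0 sites and INSR 1 sense site. IRS1, with both siRNA sites, had log2 values of −0.10 in Huh7 and 0.06 in HepG2 for COP1-siRNA against NC-siRNA. FGF19, with the lowest change in Huh7, held 0 of the 3.

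**Figure D3:**
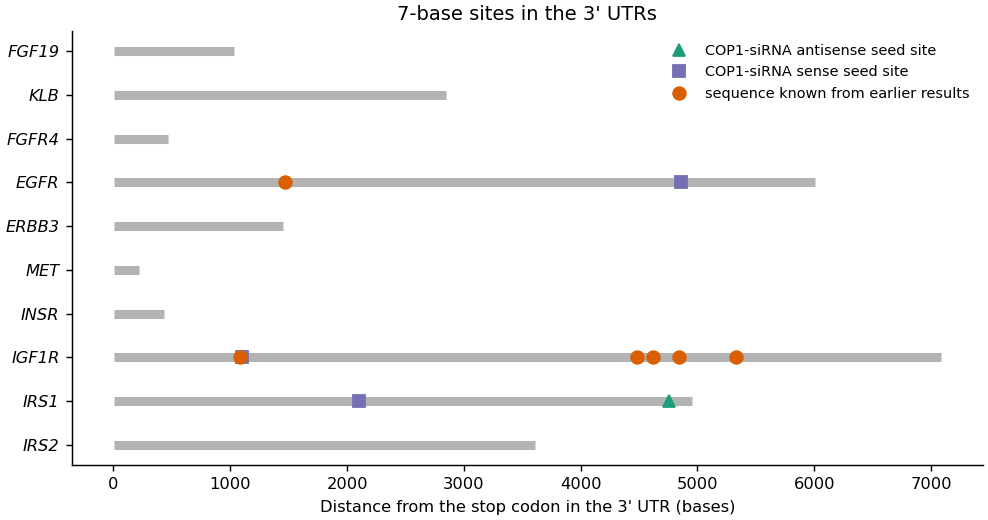
Position of the 7-base sites in the 3′ UTR of each gene (horizontal axis, bases after the stop codon; grey bars give the length of the 3′ UTR in the GENCODE 29 transcript with the longest coding sequence). Triangles are the antisense and squares the sense seed site of the COP1-siRNA, and circles AGCAGTC, of which IGF1R held 5 copies and EGFR 1.

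IRS1 (gene 3667, minus strand, chr2:226731317-226798790), the first substrate of both receptors, was at 23.7 and 22.1 TPM in Huh7 with NC-siRNA and COP1-siRNA. In HepG2 it was at 2.40 and 2.55 TPM. The lines did not overlap, while the siRNAs differed little within each. Huh7 was 9.88-fold and 8.66-fold higher, the largest difference between lines after EGFR among those of the 10 genes above 0 in both. IRS2 (gene 8660, minus strand, chr13:109752695-109786583), its close relative in hepatocyte insulin signalling, was at 2.99 and 3.08 TPM in Huh7 and 2.36 and 2.30 TPM in HepG2. Its log2 difference between lines was 0.25 and 0.31, and its changes with COP1-siRNA were 0.03 in Huh7, where quantile normalization turned the sign, and −0.03 in HepG2. The 4 IRS2 values thus lay close together at a low level. IRS1 exceeded IRS2 by 7.94-fold and 7.17-fold in Huh7, while in HepG2 the ratio was 1.02 and 1.11. IRS4, a further substrate, was listed at 0 in both Huh7 libraries and was at 209 and 184 TPM in HepG2, the highest level of any substrate in any library.

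**Figure D4:**
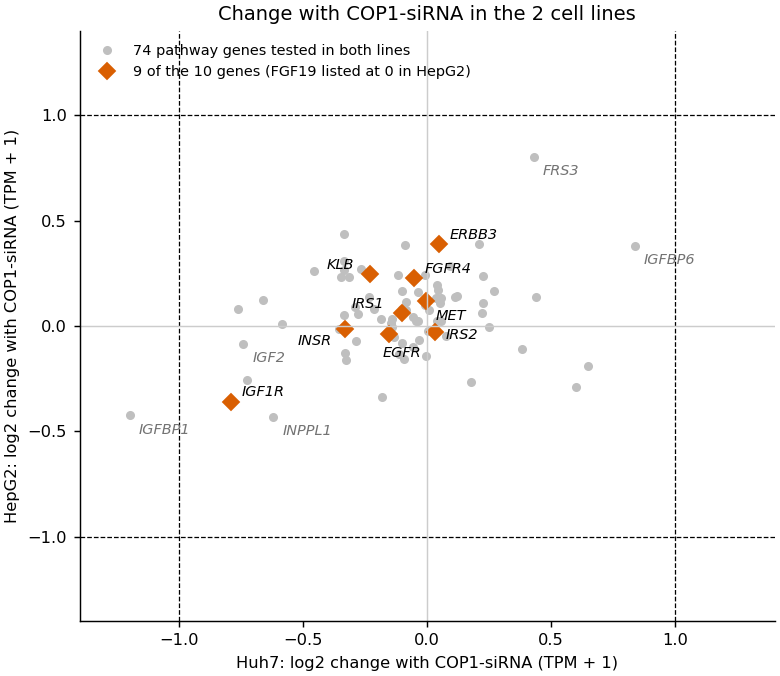
Log2 change of TPM + 1 with COP1-siRNA in Huh7 (horizontal axis) and HepG2 (vertical axis) of the 9 genes tested in both lines (diamonds) and of 74 other genes of these pathways (grey points); dashed lines mark 2-fold. All diamonds lie within the dashed lines, and IGF1R, at −0.79 and −0.36, lies farthest from 0.

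With COP1-siRNA the 10 genes lay between −0.80, for FGF19, and 0.05 in Huh7, with a median of −0.13, against a median of −0.001 and a standard deviation of 0.30 for all tested genes. The changes of 8 genes were below 0 and those of ERBB3 and IRS2 above it. In HepG2 the range was −0.36 to 0.39 with a median of 0.06, against −0.01 and 0.28 for all genes, with 5 above and 4 below 0. KLB and IRS1 were below 0 in Huh7 and above it in HepG2, as were FGFR4 and MET, whose Huh7 sign turned with FPKM. Between the lines the median log2 difference of the 10 genes was 2.0 with NC-siRNA and 1.69 with COP1-siRNA, while that of all tested genes was −0.37 and −0.35. Median-of-ratios scaling moved the latter to −0.14 and −0.13, and under it MET and INSR, at 1.20 and 1.11, also passed the limit with COP1-siRNA. The NC-siRNA and COP1-siRNA comparisons of the lines use different libraries, whereas each library serves in 1 comparison of siRNAs and 1 of lines.

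A fit over all 4 libraries took each line as a pair, with the siRNA and the line as additive terms. It leaves 1 residual degree of freedom, in which the spread of a gene is how far the lines differ in their response. Limma combines this with a spread borrowed from other genes of similar level, weighted by 4.84 prior degrees of freedom. The p-values therefore rest mostly on other genes. Limma with Benjamini-Hochberg adjustment was run over 15486 genes. For the siRNA, 0 of the 10 genes passed an adjusted p of 0.05, as did 0 of all genes (0.00%). Of all genes, 1670 or 10.8% had an unadjusted limma p under 0.05. IGF1R was the only one of the 10 with an unadjusted p under 0.05, a share close to that of all genes. Its COP1-siRNA library was the lower one in both lines. Its mean log2 difference of −0.57 had a limma adjusted p of 0.266. COP1 itself, at −1.12, had an adjusted p of 0.184 in this limma fit. For the line, 8 of the 10 genes passed in the limma fit, all but IGF1R and IRS2, against 78.5% of all genes, which is close to the same share. There the libraries of a line with either siRNA stood in as its replicates, although they may not be independent cultures.

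For the 8 genes whose level varied by at least 1 on the log2 scale, the genes with the most similar profile were found by the Euclidean distance of centred log2(TPM + 1) over the 4 libraries, a small number on which to compare profiles. FGF19 was nearest to IGF2, FBLIM1 and OLFM2, at distances of 0.13 to 0.22. KLB was nearest to ACSL4, BCL2L1 and SLC29A3, at 0.03 to 0.08. FGFR4 was nearest to TAPBPL, HEATR5A and HSD17B14, and MET to EGLN2, PTTG1IP and CRAT, all at 0.03 to 0.04. EGFR was nearest to ATP2B2, NR5A2 and SLC16A7, at 0.09 to 0.11. ERBB3 was nearest to ABHD4, TRIB3 and EGFR-AS1, at 0.03 to 0.10. INSR was nearest to LOC105379110, IQSEC1 and BTC, at 0.01 to 0.03, and IRS1 to MTUS1, PITPNM1 and STOM, at 0.01 to 0.06. LOC105379110 and BTC were at 1.33 and 1.36 TPM in the Huh7 control and at 0 and 0.03 TPM in the HepG2 control. The added 1 understates such differences, so their closeness to INSR rests on values near the floor.

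Around these receptors, 126 further genes in 13 lists were followed. With COP1-siRNA 1 of the 81 tested in Huh7 passed 2-fold, and 0 of the 88 tested in HepG2, against 1.08% and 0.934% of all tested genes, with medians of −0.06 and 0.04. The 1 gene was IGFBP1, a secreted IGF-binding protein that insulin represses in liver, which fell from 9.80 to 3.71 TPM in Huh7, a log2 change of −1.20, and was at 12.4 and 8.98 TPM in HepG2, −0.43. With FPKM in place of TPM its Huh7 change was −0.95. Among the IGF-binding proteins IGFBP6 had the highest change, 0.84 in Huh7 and 0.38 in HepG2. Of the genes that regulate FGF19 or answer to it, NR1H4, which encodes FXR, was at 93.2 and 77.3 TPM in Huh7 and 6.11 and 7.57 TPM in HepG2. NR0B2, a target of FXR named after its values were seen, was at 5.80 and 3.01 TPM in Huh7 and 22.5 and 23.8 TPM in HepG2, so that the ligand FGF19 and NR0B2 had opposite orders of the lines. CYP7A1 and CYP8B1, the bile acid synthesis genes that FGF19 signalling represses, stayed below 1 TPM in all libraries.

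Downstream of the receptors, 0 of the genes passed 2-fold with siRNA on the log2(TPM + 1) scale. The 11 adaptors tested in Huh7 ranged from −0.36 for SOS1 to 0.43 for FRS3, and the 12 in HepG2 from −0.18 for IRS4 to 0.80 for FRS3. FRS3 was at 0.49 and 1.00 TPM in Huh7 and 1.27 and 2.95 TPM in HepG2, plain ratios of 2.06 and 2.33, and with a pseudocount of 0.1 it passed 2-fold in HepG2. The 13 negative regulators tested in Huh7 ranged from −0.34 for ENPP1 to 0.60 for SOCS2, which was −0.29 in HepG2. Of the 22 PI3K, AKT and mTOR genes tested in Huh7 the lowest was INPPL1, an inositol phosphatase that opposes PI3 kinase, at −0.62. It was also the lowest of 23 in HepG2, at −0.43. FOXO3, a transcription factor that AKT keeps out of the nucleus, was at 11.7 and 6.71 TPM in Huh7, −0.72, and 20.0 and 16.6 TPM in HepG2, −0.25. Between the lines, 26 of 93 tested genes of the lists were at least 2-fold higher in Huh7 and 21 lower with NC-siRNA, against 14.7% and 27.9% of all tested genes. With COP1-siRNA 23 were higher and 23 lower, against 14.0% and 26.0%, and quantile normalization gave 28 higher and 17 lower. AREG, a ligand of EGFR, was at 65.2 and 51.5 TPM in Huh7 and 5.08 and 7.24 TPM in HepG2, the same order of the lines as its receptor, and EREG was at 3.87 and 4.20 against 0.21 and 0.29 TPM. In bulk RNA, fewer expressing cells and less RNA per cell cannot be told apart for any of these genes.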

How the data were processed

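RNA of 4 libraries was analysed, 1 per line and siRNA, grouped by their labels. The submitters' processing notes name FastQC 0.11.7, Trimmomatic 0.38, HISAT2 2.1.0, StringTie 2.1.3b, edgeR and GRCh38. The TPM that the authors deposited sums to 1000000 per library and was used throughout. The FPKM deposited is proportional to it within a library, and the coverage deposited is the mean read depth over a gene, not scaled for library depth. There are no counts, so the depth is known only as a ratio and no counting interval could be given. Gene names were taken from RefSeq (GRCh38.p14) by NCBI Gene number, which matched 44698 of the 46427 numbers.

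The log2 ratio of TPM + 1 was computed for genes with at least 1 TPM in 1 of the libraries compared, with a limit of 2-fold. With 1 library per condition a comparison of 2 libraries has no test. Added after seeing the data was limma 3.58.1 (R 4.3.3), with siRNA and line as additive terms over the 4 libraries. On simulated data for the siRNA effect, this fit recovered 200 of 200 genes changed 4-fold and called 28 others among 15486. The genes, lists, sites and alternatives were chosen with earlier results of these data known. Named beside the 10 genes were COP1, related receptors, list genes past 2-fold with siRNA, those with the highest and lowest changes of a list, ligands and binding proteins that differed between the lines, and the 3 nearest profiles. NR1H4, CYP7A1, CYP8B1, INS and HGF were named outside this rule, for their role.

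Alternatives were a pseudocount of 0.1, FPKM, depth-scaled coverage, upper-quartile, median-of-ratios and quantile scaling, no minimum or a minimum of 5 TPM, a 1.5-fold limit, and the highest line of a gene number. On simulated data with 200 genes changed 4-fold, 200 were recovered and 0 others called among 12633 tested genes for Huh7 and 14091 for HepG2. The 200 were set to exactly 4-fold with no noise. The log2 spread of the others was smaller than the real spread across genes, 0.30 in Huh7 and 0.28 in HepG2. This outcome was fixed in advance and shows only that the rule was applied as written. Python 3.11.15, numpy 2.4.6, pandas 2.3.3 and matplotlib 3.10.9 were used. Protein sequences were not used here, and some genes of the lists are not reported here.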

Additional observations from a re-analysis of the deposited data

Results flagged for a closer look

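For 5 of the 10 genes the library with COP1-siRNA was above its control in 1 line and below it in the other, and these differences between the lines were not tested. The log2 change in Huh7 minus that in HepG2 was −0.48 for KLB, −0.28 for FGFR4, −0.16 for IRS1, −0.12 for MET and 0.058 for IRS2. For KLB the change kept its sign in both lines under every alternative tried, with a range of −0.24 to −0.17 for Huh7 and of 0.20 to 0.28 for HepG2. For FGFR4, MET and IRS2 the Huh7 sign turned under at least 1 alternative. With 1 library per condition a difference of this size has no spread to be read against.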

How the results depend on the processing

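Under the alternatives tried, 473 of 492 values of single genes kept their side of the limit, which was 1.5-fold in 1 alternative and 2-fold in the rest. At 1.5-fold FGF19 and IGF1R in Huh7, COP1 in HepG2, and MET and INSR between the lines with COP1-siRNA moved by the limit alone. Their values were those of the main setting. Of the counts, 117 stayed within 1.5 times and 7 did not. The single values also cover COP1, IGFBP1 and IRS4. No minimum or a minimum of 5 TPM changes only which genes are tested, so single values could not move there. With the highest line of a gene number they were the same as in the main setting. Part of the 473 is therefore no test. The 10 genes gave 0 calls with COP1-siRNA in either line under every alternative except the 1.5-fold limit, at which Huh7 had 2. At 1.5-fold the pathway lists had 3 genes higher and 6 lower of 81 tested in Huh7, and 1 higher of 88 in HepG2. Between the lines with COP1-siRNA, 35 of 93 were higher in Huh7. Of all tested genes 2.68% were 1.5-fold lower in Huh7. No share of all genes that were 1.5-fold higher is given here, so those counts have no background to be read against. A pseudocount of 0.1 gave 1 list gene higher in HepG2, and FPKM in place of TPM gave 0 lower in Huh7; the cause was not tested. Between the lines, 6 to 8 of the tested genes among the 10 were higher in Huh7 with NC-siRNA and 5 to 8 with COP1-siRNA. The 5 came with a minimum of 5 TPM, where FGF19, at 4.57 TPM in Huh7, and IRS2, at 3.08 TPM, were not tested. In the main setting 14.7% and 14.0% of all tested genes were higher, and no such shares are given for the alternatives. MET with NC-siRNA was 0.95 with FPKM and 0.98 with upper-quartile scaling, and INSR 0.98 with FPKM, while with COP1-siRNA quantile normalization gave 1.09 and 1.24 and a pseudocount of 0.1 gave 1.01 for INSR. The change of IGF1R had a range of −0.92 to −0.45 for Huh7 and −0.41 to −0.20 for HepG2, and that of FGF19 in Huh7 from −0.92 to −0.63. The limma fit that pairs the libraries by line, chosen after seeing the data, called 0 of the 10 genes for the siRNA and 8 for the line. Over all 15486 genes it called 0 for the siRNA and 78.5% for the line, so neither count sets the 10 genes apart. The unknown number of reads limits the low values, such as IGF1R at a coverage of 1.88 to 3.16 and EGFR in HepG2 at 1.54 to 1.85.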

Other observations

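Several genes of these pathways were listed at 0 in both Huh7 libraries and expressed in HepG2, besides IRS4 and FGFR2. IGFBP2, a secreted IGF-binding protein, had 76.8 TPM in the HepG2 control and 67.4 TPM after COP1-siRNA, and IGFBP5 at 5.72 and 3.97 TPM. TGFA, a ligand of EGFR, was at 1.76 and 2.46 TPM in HepG2. The opposite was seen for IGFBP3, at 7.34 and 7.22 TPM in Huh7 and 0.24 and 0.28 TPM in HepG2. IGFBP4 was at 26.1 and 16.1 TPM in Huh7 and 9.35 and 10.3 TPM in HepG2. SPINT2, an inhibitor of the proteases that activate HGF that was named after its values were seen, was at 50.5 and 37.8 TPM in HepG2 and at 0.09 and 0.04 TPM in Huh7.

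Of 10 other receptor tyrosine kinases tested with NC-siRNA, 3 were at least 2-fold higher in Huh7 and 5 lower, against 14.7% and 27.9% of all tested genes. With COP1-siRNA 3 of 9 were higher and 4 lower, against 14.0% and 26.0%. Among the higher ones EPHA2 was at 95.3 and 87.7 TPM in Huh7 and 10.4 and 12.5 TPM in HepG2, and TYRO3 at 29.3 and 21.0 against 5.43 and 6.69 TPM. SHC1, an adaptor of EGFR and other receptors, was at 114 and 93.9 TPM in Huh7 and 24.6 and 25.7 TPM in HepG2. SOCS3, a feedback inhibitor of cytokine and insulin signalling, was at 6.13 and 7.69 TPM in Huh7 and 0.38 and 0.21 TPM in HepG2.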
